A study of Mus musculus with 82 samples.

Results

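RNA of mouse sciatic nerve was compared between libraries labelled Egr2Cre Mitf and libraries labelled Mitf, which are the 6 libraries of one deposited table, out of 82 libraries in the whole series. The members were taken by label alone, 3 libraries in each group, and every gene of that table entered the comparison. The labels give the genotype Egr2Cre Mitf for one group and the genotype Mitf for the other. They state no age and no injury for either, do not say which label carries an altered Mitf gene, and do not name separate animals for the 3 libraries of a group. The p-values below therefore measure the spread between these libraries. The protocols describe frozen nerves, stranded libraries made from messenger RNA, and short-read sequencing. Other groups used here for orientation were Egr2Cre and Mitf nerves at postnatal day 12 (P12), nerves labelled Mitf that were taken 3 days post injury or left uninjured, Mutant and wild type nerves of a time course with 3, 7 and 14 days post injury, and Ndrg1 and control nerves without a stated age or injury.

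Mitf belongs to the MiT/TFE transcription factors, whose members Tfeb, Tfe3 and Tfec bind the same short DNA motifs. It is best known from pigment cells, and the family as a whole is known for controlling genes of the lysosome. Egr2, also called Krox20, is the transcription factor that switches on the myelin program of Schwann cells, the glia of peripheral nerve, and Egr2Cre mice use its regulatory regions to drive Cre recombinase in the Schwann cell lineage. After a nerve is cut or crushed, Schwann cells shut down myelin and cholesterol genes, divide, and switch on Jun, Shh, Gdnf and other genes of the repair state.

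Of 10 Schwann cell markers, which define the labelled tissue, 10 reached 1 CPM (counts scaled to library size) in every library. Estimated counts summed to between 23380000 and 26760000 in Egr2Cre Mitf libraries, and between 25070000 and 25740000 in Mitf libraries. The nerves also carried skeletal muscle RNA: 12 muscle genes such as Acta1 and Atp2a1 summed to between 23000 and 33300 CPM in Egr2Cre Mitf libraries, against 19200 to 72400 CPM in Mitf libraries. The highest of these sums belonged to replicate 2 of Mitf, which stood apart on the first principal component (32.5% of the variance). The genes with the largest weights on that component were sex-linked, namely Xist (-0.16), Ddx3y (0.146) and Eif2s3y (0.137). Muscle genes such as Myh7 (0.114) came next, so that component does not stand for muscle alone. Red blood cell genes summed to between 831 and 6290 CPM in Egr2Cre Mitf libraries, against 287 to 1100 CPM in Mitf libraries. Xist and the Y-linked gene Ddx3y were both present in replicate 1 of Mitf, at 12.3 and 54.9 CPM, while every other library of the comparison had less than 1 CPM of one of them. Xist was the low one in replicate 2 of each group. Ddx3y was the low one in replicates 1 and 3 of Egr2Cre Mitf and in replicate 3 of Mitf. Neutrophil markers were near the floor, with 0 of 9 at 1 CPM in every library, and sums of at most 2.09 CPM for Egr2Cre Mitf and 1.87 CPM for Mitf. In RNA from whole nerve, fewer cells of a type and less RNA per cell cannot be told apart.

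Mitf itself (ENSMUSG00000035158.15, chromosome 6, 97807052 to 98021349, plus strand, mm10) stood at 7.53, 7.33 and 9.97 CPM in Egr2Cre Mitf libraries, against 11.2, 10.3 and 10.3 CPM in Mitf libraries. Every Egr2Cre Mitf library lay below every Mitf library. The difference was -0.45 on the log2 scale, Egr2Cre Mitf minus Mitf (SE 0.172, 95% interval -0.84 to -0.05), and it did not pass the adjusted test (edgeR quasi-likelihood test, adjusted p = 0.846, unadjusted p = 0.0305). A gene-level count takes in reads from all exons, so it does not show whether part of the gene was deleted. Egr2 (ENSMUSG00000037868.15, chromosome 10, 67535475 to 67542188, plus strand) stood at 65.5, 55.2 and 73.6 CPM in Egr2Cre Mitf libraries, against 55.0, 44.6 and 65.2 CPM in Mitf libraries. These groups overlapped (log2 difference 0.17, SE 0.141, interval -0.16 to 0.49). The other family members overlapped as well. Tfe3 averaged 52.3 ± 4.6 CPM for Egr2Cre Mitf and 43.3 ± 7.36 CPM for Mitf, Tfeb averaged 36.0 ± 1.92 CPM for Egr2Cre Mitf and 35.2 ± 6.03 CPM for Mitf, and Tfec averaged 1.51 ± 0.265 CPM for Egr2Cre Mitf and 1.39 ± 0.226 CPM for Mitf (SD, n = 3 each). Rragd, a small GTPase that places these factors under nutrient control at the lysosome, averaged 55.1 ± 10.7 CPM for Egr2Cre Mitf and 74.2 ± 32.5 CPM for Mitf, and its log2 difference of -0.53 had an interval from -1.57 to 0.50.

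Across the transcriptome, no gene passed the test. Of 15482 genes, edgeR called 0 (0%) at an adjusted p under 0.05, and the smallest adjusted p was 0.846. Unadjusted, 671 genes (4.33%) had a p under 0.05, 434 of them higher (2.8%) and 237 lower (1.53%) in Egr2Cre Mitf. The count was 265 without replicate 1 of Egr2Cre Mitf, 423 without its replicate 2 and 1904 without its replicate 3, and 1072 without replicate 1 and 425 without replicate 2 of Mitf. DESeq2 had 686 genes at that level with every library in, and called 7 of 15474 (0.0452%). The groups did not overlap in 1266 genes (8.18%), 949 of them higher (6.13%) and 317 lower (2.05%). Most differences were small: 90.7% of genes differed by less than 0.5 on the log2 scale, 1.58% by at least 1, and 118 genes did so with a mean of at least 1 CPM. The median log2 difference over all genes was -0.01. For the 13974 genes with a mean of at least 1 CPM, the median half-width of the 95% interval was 0.361. With counts simulated for this comparison, the test recovered 51% of genes changed 2-fold and 88% of those changed 4-fold, and called 25 unchanged genes. The simulated counts varied independently from gene to gene, without the muscle, red blood cell and sex differences of the real libraries. These shares may therefore not hold for the real libraries.

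**Figure D1:**
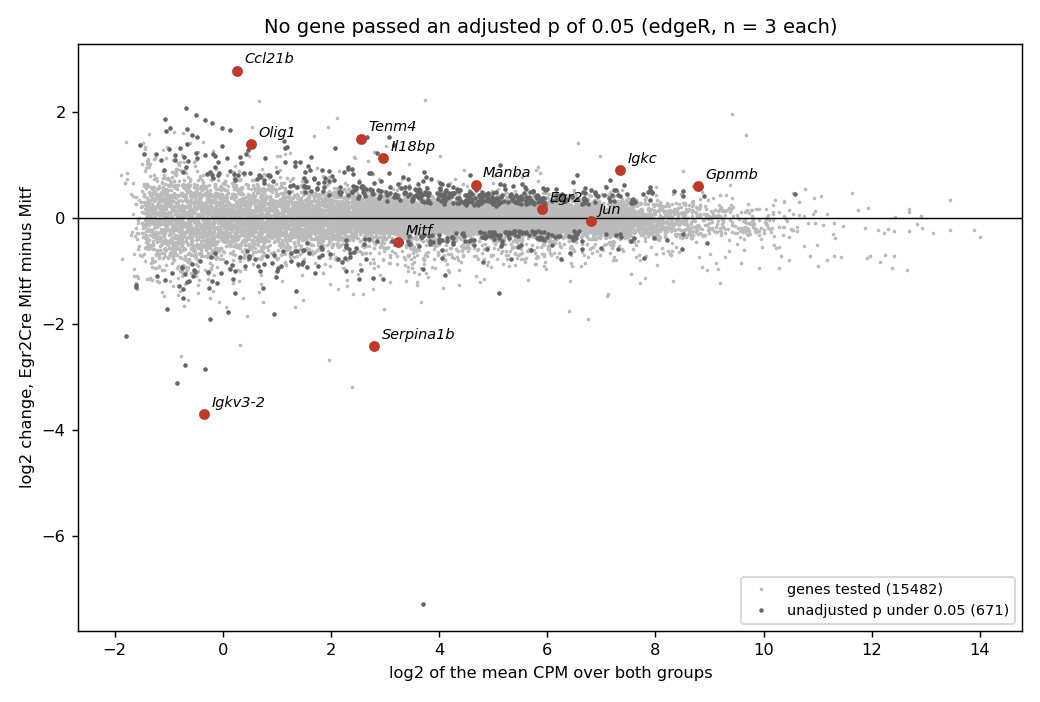
Log2 difference between Egr2Cre Mitf and Mitf libraries (vertical axis) against the log2 of the mean CPM over both groups (horizontal axis), 1 point for each of 15482 genes. The 671 genes at an unadjusted p under 0.05 are dark, named genes are red, and most points lie close to 0. The lowest point is RP24-68H1.1, a gene with a clone name, at a log2 difference of -7.28.

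The 12 genes named next per direction had the smallest p among those with a mean of at least 1 CPM over both groups, without pseudogenes, sex-linked genes, and genes that carry only a predicted or clone name. They were chosen after their values were seen, none passed edgeR's adjusted test, and they are given as values. Il18bp, a secreted protein that binds and blocks interleukin-18 (ENSMUSG00000070427.4, chromosome 7, 102014885 to 102018690, minus strand), had 12.1, 11.5 and 8.98 CPM in Egr2Cre Mitf libraries, against 5.46, 3.76 and 4.86 CPM in Mitf libraries. The groups were well apart, with a log2 difference of 1.13 (SE 0.170, interval 0.74 to 1.52, unadjusted p = 0.000124 by edgeR, the smallest of all). Tenm4, a teneurin, one of the large transmembrane proteins of cell contact (ENSMUSG00000048078.16, chromosome 7, 96171246 to 96911093, plus strand), had 10.8, 9.57 and 6.03 CPM in Egr2Cre Mitf libraries, against 2.47, 3.40 and 2.84 CPM in Mitf libraries. It did not overlap either (log2 difference 1.5, SE 0.264, interval 0.89 to 2.1). Manba, the lysosomal enzyme beta-mannosidase (ENSMUSG00000028164.15, chromosome 3, 135485611 to 135571404, plus strand), had 36.0, 32.1 and 27.2 CPM in Egr2Cre Mitf libraries, against 21.3, 16.5 and 20.4 CPM in Mitf libraries. Its log2 difference was 0.63 (SE 0.120, interval 0.36 to 0.91), again with no overlap.

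Immune genes stood among both ends of the ranking. Igkc, the constant region of antibody kappa light chains (chromosome 6, 70726435 to 70726966, plus strand), had 210, 223 and 215 CPM in Egr2Cre Mitf libraries, against 87.5, 101 and 140 CPM in Mitf libraries, a log2 difference of 0.90 (SE 0.173). The lymphocyte markers summed to between 11.5 and 11.6 CPM in Egr2Cre Mitf libraries and between 8.39 and 11.6 CPM in Mitf libraries. Ccl21a, a chemokine of lymphatic vessels and lymphoid tissue, had 10.2, 17.4 and 10.5 CPM in Egr2Cre Mitf libraries, against 5.80, 3.87 and 2.91 CPM in Mitf libraries (log2 difference 1.52, SE 0.317). The near-identical Ccl21b had 1.39, 3.43 and 1.48 CPM in Egr2Cre Mitf libraries, against 0.485, 0.192 and 0.210 CPM in Mitf libraries, and how reads were split between these copies is uncertain. Cd1d1, which presents lipids to natural killer T cells, averaged 12.9 ± 2.34 CPM for Egr2Cre Mitf and 7.15 ± 0.401 CPM for Mitf (SD, n = 3 each), with no overlap.

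The rest of the 12 higher genes were Fetub, Fzd7, Enpp2, Pcsk6 and Pcdhgc4. Fzd7, a Wnt receptor, had 66.1, 59.0 and 59.1 CPM in Egr2Cre Mitf libraries, against 47.4, 34.6 and 41.4 CPM in Mitf libraries (log2 difference 0.50, SE 0.106). Enpp2, the enzyme autotaxin that makes lysophosphatidic acid, had 68.1, 63.8 and 60 CPM in Egr2Cre Mitf libraries, against 49.7, 35.9 and 43.7 CPM in Mitf libraries (log2 difference 0.49, SE 0.108). Both sets of values were apart, and the lowest value of each Mitf group came from the muscle-rich replicate 2. With that library and the Egr2Cre Mitf library of the same number left out, edgeR called 1 gene, Serpina1b, at -3.51, while the log2 differences were 1.01 for Il18bp, 1.64 for Tenm4, 0.58 for Manba, 0.48 for Fzd7 and 0.44 for Enpp2.

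Lower in Egr2Cre Mitf at the smallest p were H2-T24, Amica1, Nt5c1a, Dynlt1, Serpina1b, Park2, Sptb, Iigp1, Fbxo17, Sv2c, Calr3 and Ltb. Serpina1b, a protease inhibitor of the alpha-1-antitrypsin family (chromosome 12, 103728156 to 103830373, minus strand), had 1.53, 4.18 and 1.03 CPM in Egr2Cre Mitf libraries, against 18, 6.14 and 11.0 CPM in Mitf libraries. The log2 difference was -2.42 (SE 0.609, interval -3.90 to -0.93), and the gene has close paralogs, so its share of reads is uncertain. Amica1, an adhesion molecule of leukocytes, had 1.84, 2.77 and 2.05 CPM in Egr2Cre Mitf libraries, against 5.15, 4.39 and 3.38 CPM in Mitf libraries (log2 difference -1.04, SE 0.268). Sptb, the beta spectrin of the membrane skeleton of red blood cells and muscle, had 129, 106 and 159 CPM in Egr2Cre Mitf libraries, against 166, 179 and 211 CPM in Mitf libraries (log2 difference -0.58, SE 0.176). Park2, the ubiquitin ligase parkin, averaged 4.78 ± 1.22 CPM for Egr2Cre Mitf and 7.67 ± 0.947 CPM for Mitf (SD, n = 3 each). All 4 were without overlap between the groups.

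DESeq2 called 5 genes higher and 2 lower. The higher ones were Il18bp (adjusted p = 0.00143 by DESeq2), Tenm4 (0.00376), Ccl21a, Ccl21b and Igkc (0.00759 each). The lower ones were Serpina1b and the antibody variable segment Igkv3-2 (0.00376 each). Igkv3-2 stood at 0.161, 0.0768 and 0.128 CPM in Egr2Cre Mitf libraries, against 0.718, 2.37 and 1.24 CPM in Mitf libraries, so it went the other way from Igkc, with few reads.

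**Figure D2:**
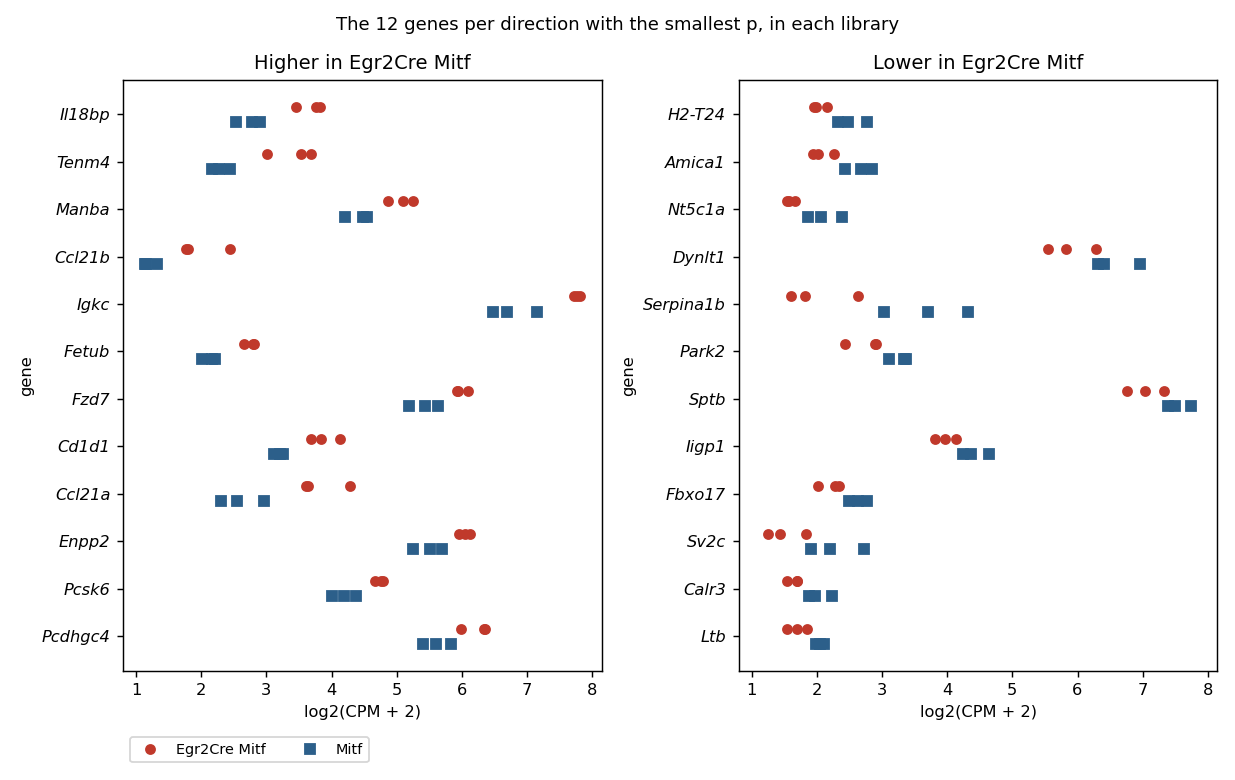
Level of the 12 genes per direction with the smallest p, as log2(CPM + 2), in each Egr2Cre Mitf library (red circles) and each Mitf library (blue squares). In all 24 genes the groups are apart, and 8.18% of all genes tested were apart in this way.

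Myelin protein genes were at much the same level under both labels. Of 22 genes 21 were tested, none passed, and the list's median log2 difference was 0.14 beside -0.01 for all genes, with 17 values above 0 and 4 below. Mbp, the basic protein that seals the cytoplasmic faces of myelin, had 6900, 5350 and 9360 CPM in Egr2Cre Mitf libraries, against 8500, 5100 and 8840 CPM in Mitf libraries. Prx, periaxin of the Schwann cell membrane, had 1880, 1410 and 2010 CPM in Egr2Cre Mitf libraries, against 1740, 1110 and 2120 CPM in Mitf libraries. Both genes overlapped between the groups. Cnp, an enzyme of uncompacted myelin, averaged 789 ± 134 CPM for Egr2Cre Mitf and 580 ± 150 CPM for Mitf, and Mag, the adhesion protein next to the axon, averaged 114 ± 13 CPM for Egr2Cre Mitf and 89.5 ± 20.6 CPM for Mitf (SD, n = 3 each). Their log2 differences were 0.37 (SE 0.189) for Cnp and 0.27 (SE 0.142) for Mag, with overlap in each. Mpp6, a scaffold protein of the Schwann cell membrane, was the member with an unadjusted p under 0.05, at 50.7, 48.1 and 60.3 CPM in Egr2Cre Mitf libraries, against 63.1, 64.2 and 63.3 CPM in Mitf libraries (log2 difference -0.35, SE 0.134).

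Lipid synthesis genes did not pass either. Cholesterol synthesis genes had a median log2 difference of 0.03 over 24 tested, with 15 above 0. Sqle, squalene epoxidase, had 32.1, 25.0 and 30.9 CPM in Egr2Cre Mitf libraries, against 28.3, 21 and 28.5 CPM in Mitf libraries, and the groups overlapped. Dhcr7, which makes cholesterol from its last precursor, had 24.7, 25.3 and 22.4 CPM in Egr2Cre Mitf libraries, against 20.5, 15 and 19.5 CPM in Mitf libraries. Its groups were apart (log2 difference 0.32, SE 0.116, interval 0.06 to 0.59). Genes of fatty acid and sphingolipid synthesis had a median of 0.23, with 20 of 21 above 0. Fasn, fatty acid synthase, had 221, 199 and 123 CPM in Egr2Cre Mitf libraries, against 110, 81.3 and 124 CPM in Mitf libraries (log2 difference 0.71, SE 0.208, unadjusted p = 0.00875 by edgeR). Replicate 3 of each group had nearly the same value. Fat cell markers had a median of 0.43, which was -0.15 without replicate 2 of Egr2Cre Mitf, where the fatty acid and sphingolipid list had 0.22. The 11 fat cell genes summed to between 1790 and 3720 CPM in Egr2Cre Mitf libraries and between 1170 and 2700 CPM in Mitf libraries, 10 of 10 tested had a positive difference, and Pparg, the master regulator of fat cells, had 14.9, 20.7 and 13.5 CPM in Egr2Cre Mitf libraries, against 10.3, 10.2 and 8.04 CPM in Mitf libraries. Only Ucp1 of these markers was under 1 CPM in all 6 libraries. The part of fat in the lipid values was not tested.

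Genes of non-myelinating Schwann cells, the cells that hold small axons in bundles without myelin, had the highest median among the Schwann cell lists, with none past the test. All 12 tested had a positive log2 difference, the median was 0.42, and 8 had an unadjusted p under 0.05, where 2.8% of all genes tested did so in that direction. Ncam1, a neural cell adhesion molecule, had 28.6, 22.7 and 22.2 CPM in Egr2Cre Mitf libraries, against 14.6, 13.9 and 20.1 CPM in Mitf libraries (log2 difference 0.51, SE 0.149). Gfra3, the receptor for artemin, had 8.40, 10.6 and 7.10 CPM in Egr2Cre Mitf libraries, against 3.07, 3.32 and 7.38 CPM in Mitf libraries (log2 difference 0.85, SE 0.330). Ncam1 did not overlap between the groups and Gfra3 did. L1cam, an adhesion molecule of axons and these cells, and Scn7a, a sodium channel relative, had log2 differences of 0.61 (SE 0.232) and 0.34 (SE 0.134). Chl1 and Cdh2, further adhesion molecules, had 0.41 (SE 0.170) and 0.36 (SE 0.135). The general Schwann cell factor Sox10 had 230, 175 and 159 CPM in Egr2Cre Mitf libraries, against 140, 100 and 186 CPM in Mitf libraries, a log2 difference of 0.33 (SE 0.193), with overlap. The median of the 12 genes was 0.35 without the muscle-rich library and its number mate, and ran from 0.28 to 0.61 as each library was left out.

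Repair genes had a median log2 difference of 0.22 over 27 tested, 21 of them above 0, and 7 higher and 1 lower at an unadjusted p under 0.05, beside 2.8% higher and 1.53% lower of all genes tested. Ngfr, Ncam1, Sox2 and Cdh2 belong to this list and also to the non-myelinating Schwann cell list, so these lists are not separate results. Jun, which switches Schwann cells into the repair state (ENSMUSG00000052684.4, chromosome 4, 95049034 to 95052222, minus strand), had 117, 129 and 96.8 CPM in Egr2Cre Mitf libraries, against 116, 127 and 89.7 CPM in Mitf libraries. Values of the same replicate number lay close together, and the log2 difference was -0.05 (SE 0.195, interval -0.50 to 0.39). CPM values are scaled to library totals alone and the log2 difference also uses TMM factors, which correct for differences in RNA composition, so the sign for Jun differs between them. Shh, a signal that injured Schwann cells secrete, had 1.27, 0.934 and 2.10 CPM in Egr2Cre Mitf libraries, against 1.56, 0.310 and 1.86 CPM in Mitf libraries. It was low and overlapping (log2 difference 0.16, interval -1.13 to 1.44). Gdnf, a growth factor for neurons, averaged 0.878 ± 0.411 CPM for Egr2Cre Mitf and 0.773 ± 0.251 CPM for Mitf (SD, n = 3 each).

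Other repair genes leaned higher under Egr2Cre Mitf. Tnc, the matrix protein tenascin C, had 29.3, 43.7 and 20.6 CPM in Egr2Cre Mitf libraries, against 14.5, 18 and 17.3 CPM in Mitf libraries (log2 difference 0.82, SE 0.284, interval 0.15 to 1.49). Sox2, a factor of immature Schwann cells, had 14.4, 14.3 and 13.0 CPM in Egr2Cre Mitf libraries, against 8.61, 8.74 and 11.9 CPM in Mitf libraries (log2 difference 0.43, SE 0.149). Neither gene overlapped. Olig1, a factor induced in Schwann cells without axons (chromosome 16, 91269772 to 91271933, plus strand), had 1.61, 2.88 and 1.84 CPM in Egr2Cre Mitf libraries, against 0.479, 0.673 and 1.13 CPM in Mitf libraries (log2 difference 1.40, SE 0.394, interval 0.50 to 2.30). Fgf5, a fibroblast growth factor, had 2.81, 5.38 and 1.54 CPM in Egr2Cre Mitf libraries, against 0.798, 1.27 and 1.28 CPM in Mitf libraries (log2 difference 1.45, SE 0.474). Ngfr, the low-affinity neurotrophin receptor, averaged 77.8 ± 18.9 CPM for Egr2Cre Mitf and 50.4 ± 12.1 CPM for Mitf (SD, n = 3 each), and its groups overlapped. Replicate 2 of Egr2Cre Mitf, which also had the most red blood cell RNA, was the highest library for Tnc, Olig1, Fgf5 and Ngfr. Sprr1a, a gene induced by axon injury, leaned the other way, at 0.712, 0.972 and 1.20 CPM in Egr2Cre Mitf libraries, against 1.91, 1.58 and 1.63 CPM in Mitf libraries.

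Lysosome genes are the group best known as targets of the MiT/TFE family, in what is called the CLEAR network. None of 39 tested passed, 35 had a positive log2 difference, the median was 0.18, and 8 were higher at an unadjusted p under 0.05, beside 2.8% of all genes tested. Glb1, lysosomal beta-galactosidase (ENSMUSG00000045594.10, chromosome 9, 114401076 to 114474898, plus strand), had 26.9, 19.1 and 20.4 CPM in Egr2Cre Mitf libraries, against 16.7, 11.0 and 13.2 CPM in Mitf libraries (log2 difference 0.62, SE 0.160, interval 0.26 to 0.99). Gpnmb, a glycoprotein of lysosomes and melanosomes in macrophages and pigment cells (ENSMUSG00000029816.10, chromosome 6, 49036546 to 49070929, plus strand), had 652, 527 and 450 CPM in Egr2Cre Mitf libraries, against 449, 208 and 375 CPM in Mitf libraries (log2 difference 0.60, SE 0.235, interval 0.06 to 1.13). Both were without overlap, Gpnmb by the smallest of margins. Clcn7, the chloride and proton exchanger of lysosomes, had 47.1, 45.1 and 39.0 CPM in Egr2Cre Mitf libraries, against 36.1, 26.8 and 38.0 CPM in Mitf libraries (log2 difference 0.31, SE 0.116). Naglu, a glucosaminidase, had 45.4, 41.7 and 35.1 CPM in Egr2Cre Mitf libraries, against 35.1, 20.7 and 33.5 CPM in Mitf libraries (log2 difference 0.39, SE 0.159). The cathepsins Ctsf, Ctsb and Ctsa had log2 differences of 0.31 (SE 0.107), 0.46 (SE 0.199) and 0.29 (SE 0.125). In each of these genes the muscle-rich replicate 2 of Mitf had the lowest value of all 6 libraries.

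Macrophages are rich in lysosomes, and their markers lay in the same direction. Of 18 macrophage markers, all at 1 CPM or more in every library, 15 had a positive log2 difference and the median was 0.25. They summed to between 3090 and 3510 CPM in Egr2Cre Mitf libraries, against 1760 to 3200 CPM in Mitf libraries. C1qc, a complement component, had 214, 180 and 179 CPM in Egr2Cre Mitf libraries, against 161, 105 and 141 CPM in Mitf libraries, and Trem2 averaged 64.6 ± 5.8 CPM for Egr2Cre Mitf and 48.1 ± 15.8 CPM for Mitf (SD, n = 3 each). The part of macrophages in the lysosomal values was not tested.

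The promoters of 3 lysosomal genes are printed to show the motif that Mitf and its relatives bind, here TCACGTG, in capitals. Each runs from 250 bases before to 50 after the start of the gene, 5′ to 3′ on the plus strand, as given by RefSeq on GRCm38.p6. They are from chr9:114400828-114401127, chr11:101069844-101070143 and chr17:25133141-25133440, in the order printed.
Glb1: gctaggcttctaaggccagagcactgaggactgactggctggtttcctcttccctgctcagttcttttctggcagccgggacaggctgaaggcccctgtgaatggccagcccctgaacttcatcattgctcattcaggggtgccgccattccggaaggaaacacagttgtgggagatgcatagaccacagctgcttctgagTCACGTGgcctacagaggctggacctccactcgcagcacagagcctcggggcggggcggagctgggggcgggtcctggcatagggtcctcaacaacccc
Naglu: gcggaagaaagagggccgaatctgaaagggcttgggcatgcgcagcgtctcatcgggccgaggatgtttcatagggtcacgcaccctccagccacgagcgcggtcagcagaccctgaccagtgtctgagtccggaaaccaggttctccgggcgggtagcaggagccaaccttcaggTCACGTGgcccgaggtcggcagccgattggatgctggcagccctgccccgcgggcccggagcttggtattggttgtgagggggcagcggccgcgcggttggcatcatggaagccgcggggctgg
Clcn7: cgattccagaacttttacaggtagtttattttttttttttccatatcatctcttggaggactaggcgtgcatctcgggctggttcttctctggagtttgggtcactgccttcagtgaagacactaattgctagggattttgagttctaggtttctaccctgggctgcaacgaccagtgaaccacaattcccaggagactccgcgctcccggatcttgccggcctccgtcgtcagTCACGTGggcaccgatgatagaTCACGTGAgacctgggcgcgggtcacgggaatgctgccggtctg
The motif begins at base -49 from the start in Glb1 and at base -74 in Naglu. Clcn7 holds it at -16 and again at 7, where the letters TCACGTGA read as the motif on both strands, in overlap. Of the lysosome list, 31 genes had a promoter in the table, and 11 of them (35.5%) held TCACGTG on either strand, while 4.29% of 27025 genes with a promoter did, and 6.74% of those tested here. The shorter core CACGTG, which is part of TCACGTG, was in 41.9% of the lysosome genes and 8.09% of all. The variant TCATGTG was in 16.1% of the lysosome genes and 4.31% of all. Of the cholesterol synthesis genes, 3 of 17 (17.6%) held TCACGTG, and none of 15 myelin or 18 repair genes with a promoter did. The promoters of Gpnmb, Manba, Il18bp and Tenm4 held none of these letters in the same window. The lysosome list was chosen as a group known as targets of factors that bind this motif, so its higher share is not a separate result. A match is a description of letters and not a measured binding site.

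Outside the lysosome, targets of Mitf known from pigment cells gave a median log2 difference of -0.01 over 10 tested of 16. Tyr and Oca2 had no counts, and Dct, Pmel and Mlana were under 1 CPM in all 6 libraries. Ednrb, the endothelin receptor that Schwann cells also express, had 99.9, 79.3 and 69.9 CPM in Egr2Cre Mitf libraries, against 61.0, 53.0 and 69.3 CPM in Mitf libraries (log2 difference 0.36, SE 0.133). Its groups were just apart.

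Extracellular matrix genes had 20 of 20 positive log2 differences with a median of 0.39, none past the test. Mmp2, a matrix protease, had 390, 307 and 184 CPM in Egr2Cre Mitf libraries, against 200, 176 and 173 CPM in Mitf libraries, and Fn1, fibronectin, had 563, 423 and 326 CPM in Egr2Cre Mitf libraries, against 333, 274 and 259 CPM in Mitf libraries. Replicates 1 and 2 of Egr2Cre Mitf were high and replicate 3 lay among the Mitf values. Thbs2, a thrombospondin, averaged 122 ± 30.2 CPM for Egr2Cre Mitf and 81.3 ± 6.96 CPM for Mitf (SD, n = 3 each). Fibroblast markers, by contrast, had a median of 0.03 over 12 tested.

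Genes of energy metabolism lay on the other side, together with muscle. All 18 respiratory chain genes had negative log2 differences, with a median of -0.26, and 10 of 17 glycolysis genes did, with a median of -0.38. Skeletal muscle genes had a median of -0.75, and Atp2a1, the calcium pump of fast muscle, had 3380, 4130 and 4010 CPM in Egr2Cre Mitf libraries, against 2730, 11100 and 6420 CPM in Mitf libraries. Without the muscle-rich library and its number mate, the glycolysis median was -0.02 and the respiratory chain median -0.15. Mast cell genes had 8 of 8 negative log2 differences, none past the test, and a median of -0.53, which was -0.22 without replicate 1 of Mitf and -0.27 with a sex covariate. Hdc, which makes histamine, had 2.47, 5.46 and 3.29 CPM in Egr2Cre Mitf libraries, against 8.78, 10.4 and 3.96 CPM in Mitf libraries (log2 difference -1.15, SE 0.474), with overlap. Cell cycle genes had a median of 0.22, with 22 of 28 positive and none at an unadjusted p under 0.05.

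The remaining lists again had no member past the test, and their medians varied. Schwann cell transcription factors had a median log2 difference of 0.17 with 13 of 17 positive, genes of axon-induced growth factor and Neuregulin signalling 0.13 with 15 of 18, and genes of the node and paranode, where axon and myelin meet, 0.16 with 9 of 13. Genes of the integrated stress response had 0.05 with 9 of 16 positive, interferon response genes -0.06 with 6 of 16, and immediate early and heat shock genes -0.18 with 4 of 13. Clock genes had -0.08 with 4 of 16 positive, and factors of the MiT/TFE and folliculin group -0.01 with 4 of 10. Among cell type markers, the medians were 0.21 for Schwann cells, 0.21 for endothelium, 0.13 for pericytes and smooth muscle, 0.18 for perineurium, 0.04 for lymphocytes, 0.43 for fat cells and -0.47 for neurons, of which Scn10a was at 0 in every library. Red blood cell genes had a median of 1.56, carried by replicate 2 of Egr2Cre Mitf, and -0.16 was the value of the single neutrophil gene tested. Genes that rose 3 days post injury in the injury table had a median of 0.07 over 808 tested, and those that fell had 0.06 over 296.

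**Figure D3:**
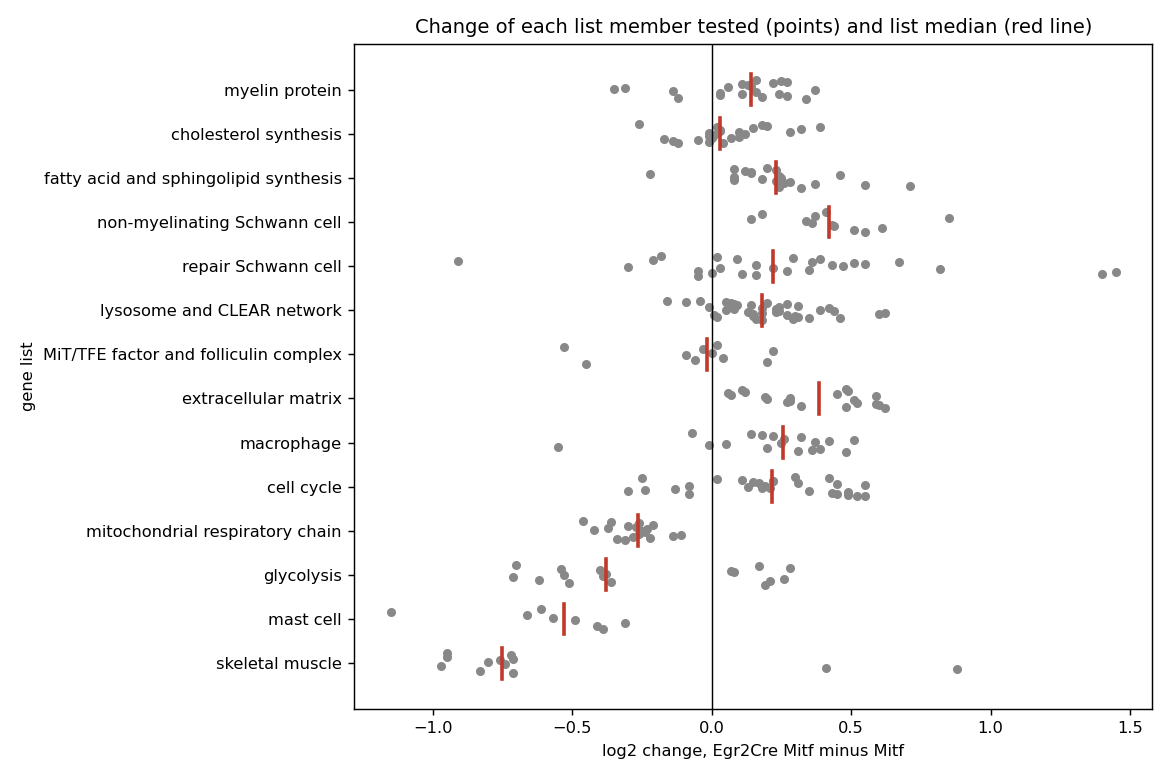
Log2 difference, Egr2Cre Mitf minus Mitf, of every tested member of 14 gene lists (grey points) with the median of each list (red line). The medians run from -0.75 for skeletal muscle genes to 0.42 for non-myelinating Schwann cell genes, beside -0.01 for all genes, and no member passed the adjusted test.

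Since the labels state no injury, the levels of myelin and repair genes were set beside those of nerves whose state is labelled. The tables were made separately, so these levels were not tested across tables and stand side by side only. In the table of nerves labelled Mitf, 3 days post injury against uninjured, edgeR called 3365 of 15245 genes (22.1%), and 837 (5.49%) rose and 304 (1.99%) fell by 1 or more on the log2 scale. There 20 of 25 cholesterol synthesis genes fell, 15 of 24 repair genes rose and 24 of 27 cell cycle genes rose. Those genes measured in all tables used here, 776 that rose and 279 that fell, gave each library a score, the mean log2(CPM + 2) of the first set minus that of the second. The score was -0.87 ± 0.06 in Egr2Cre Mitf and -0.88 ± 0.12 in Mitf libraries (SD, n = 3 each). It was -0.27 ± 0.54 in nerves 3 days post injury and -2.78 ± 0.15 in uninjured nerves (SD, n = 4 each), whose difference had chosen the genes. It was -0.47 ± 0.17 in Ndrg1 (SD, n = 5) and -2.78 ± 0.08 in control nerves (SD, n = 6), and 2.06 ± 0.11, 1.62 ± 0.16 and 1.15 ± 0.08 in wild type nerves 3, 7 and 14 days post injury (SD, n = 3 each). The score depended on the fold limit for its genes: with genes past a log2 change of 2, it was 0.23 in Egr2Cre Mitf and -0.2 in Mitf libraries, against 2.61 at 3 days post injury, -0.24 in uninjured nerves and 0.32 in control nerves. Under the first limit both labels lay nearer to nerves 3 days post injury, and under the second both lay between the means of uninjured and control nerves. Under the second limit wild type nerves had 3.34 ± 0.32, 1.26 ± 0.39 and 0.45 ± 0.54 at 3, 7 and 14 days post injury (SD, n = 3 each). That limit thus did not set nerves 14 days post injury apart from control nerves. The genes that fell after injury averaged 4.90 ± 0.08 in Egr2Cre Mitf and 4.80 ± 0.18 in Mitf libraries (SD, n = 3 each), against 4.99 ± 0.34 at 3 days post injury and 6.12 ± 0.02 in uninjured nerves (SD, n = 4 each). The genes that rose averaged 4.04 ± 0.05 and 3.92 ± 0.09 in Egr2Cre Mitf and Mitf libraries, against 4.72 ± 0.25 at 3 days post injury and 3.34 ± 0.14 in uninjured nerves.

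Single genes did not all place the nerves in the same way. Mbp averaged 7200 ± 2020 CPM for Egr2Cre Mitf and 7480 ± 2070 CPM for Mitf (SD, n = 3 each), against 14100 ± 4260 CPM at 3 days post injury and 30600 ± 6010 CPM in uninjured nerves (SD, n = 4 each). Wild type nerves had 1230 ± 237, 230 ± 58.0 and 320 ± 119 CPM at 3, 7 and 14 days post injury (SD, n = 3 each), and control nerves had 36000 ± 3200 CPM (SD, n = 6). Mbp thus lay below the uninjured and control nerves and above the wild type time course. Prx was placed likewise, at 1760 ± 314 CPM for Egr2Cre Mitf and 1660 ± 513 CPM for Mitf, against 4330 ± 2010 CPM at 3 days post injury, 9330 ± 646 CPM in uninjured nerves, 8260 ± 261 CPM in control nerves, and between 10.8 and 69.0 CPM in the wild type time course. Sqle averaged 29.3 ± 3.81 CPM for Egr2Cre Mitf and 25.9 ± 4.26 CPM for Mitf, against 104 ± 30.0 CPM at 3 days post injury, 221 ± 27.1 CPM in uninjured nerves and 323 ± 34.3 CPM in control nerves, and between 10.6 and 38.1 CPM in the wild type time course. Sox10 was lower too, at 188 ± 37.2 CPM for Egr2Cre Mitf and 142 ± 43.0 CPM for Mitf, against 320 ± 104 CPM at 3 days post injury and 544 ± 43.5 CPM in uninjured nerves. Muscle RNA differed between these tables: the 12 muscle genes summed to at most 34.2 CPM at 3 days post injury and 2620 CPM in uninjured nerves. In wild type nerves they summed to between 330 and 2480 CPM at 3 days post injury. The sums there were 3410 to 36000 CPM at 7 days and 9720 to 95200 CPM at 14 days, overlapping those of Egr2Cre Mitf and Mitf libraries.

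Counted per count of Sox10, the transcription factor that marks Schwann cells, which leaves out RNA of cells without Sox10 from the denominator, Mbp stood at 39.8 ± 16.6 in Egr2Cre Mitf and 52.9 ± 6.87 in Mitf libraries (SD, n = 3 each), beside 44.4 ± 5.48 at 3 days post injury and 56.1 ± 8.80 in uninjured nerves (SD, n = 4 each). In wild type nerves 3 days post injury it was 5.72 ± 1.42 (SD, n = 3). Prx per Sox10 count was 9.61 ± 2.62 in Egr2Cre Mitf and 11.6 ± 0.75 in Mitf libraries, against 13.1 ± 2.21 at 3 days post injury and 17.2 ± 1.01 in uninjured nerves, and 0.32 ± 0.0424 in wild type nerves 3 days post injury. On this scale, chosen after seeing the data, the ranges of Mbp overlapped those of both groups of the injury table, and Prx lay below the uninjured nerves.

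Set against uninjured nerves, some signals of acute injury were higher and others were not. Jun averaged 114 ± 16.4 CPM for Egr2Cre Mitf and 111 ± 19.2 CPM for Mitf (SD, n = 3 each), a level like that of nerves 3 days post injury, 102 ± 15.8 CPM, and above the 40.3 ± 7.02 CPM of uninjured nerves (SD, n = 4 each). Shh averaged 1.43 ± 0.597 CPM for Egr2Cre Mitf and 1.24 ± 0.823 CPM for Mitf, against 88.3 ± 43.5 CPM at 3 days post injury and 3.18 ± 1.15 CPM in uninjured nerves. In wild type nerves Shh stood at 501 ± 42.7, 13.8 ± 11.1 and 1.30 ± 0.85 CPM at 3, 7 and 14 days. Gdnf had 20.1 ± 8.02 CPM at 3 days post injury and 0.122 ± 0.163 CPM in uninjured nerves. In Egr2Cre Mitf and Mitf libraries Gdnf stood at 7.2 and 6.34 times the uninjured mean, from low values. Against the mean at 3 days post injury it stood at 0.0437 and 0.0385 times. Mki67, a protein of dividing cells, averaged 6.15 ± 2.5 CPM for Egr2Cre Mitf and 4.02 ± 0.784 CPM for Mitf, against 55.3 ± 26.1 CPM at 3 days post injury and 7.79 ± 3.25 CPM in uninjured nerves. Mki67 was thus at the level of uninjured nerve, Shh was at or below it, and Jun was above it. Wild type nerves had Jun between 262 and 279 CPM at 3 days and between 57.2 and 81 CPM at 14 days. Their Mki67 lay between 6.75 and 12.6 CPM at 14 days, so low Shh and Mki67 were not particular to uninjured nerve. Tnc, at 31.2 ± 11.7 CPM for Egr2Cre Mitf and 16.6 ± 1.86 CPM for Mitf, lay between 60.4 ± 18.7 CPM at 3 days post injury and 11.6 ± 2.81 CPM in uninjured nerves.

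**Figure D4:**
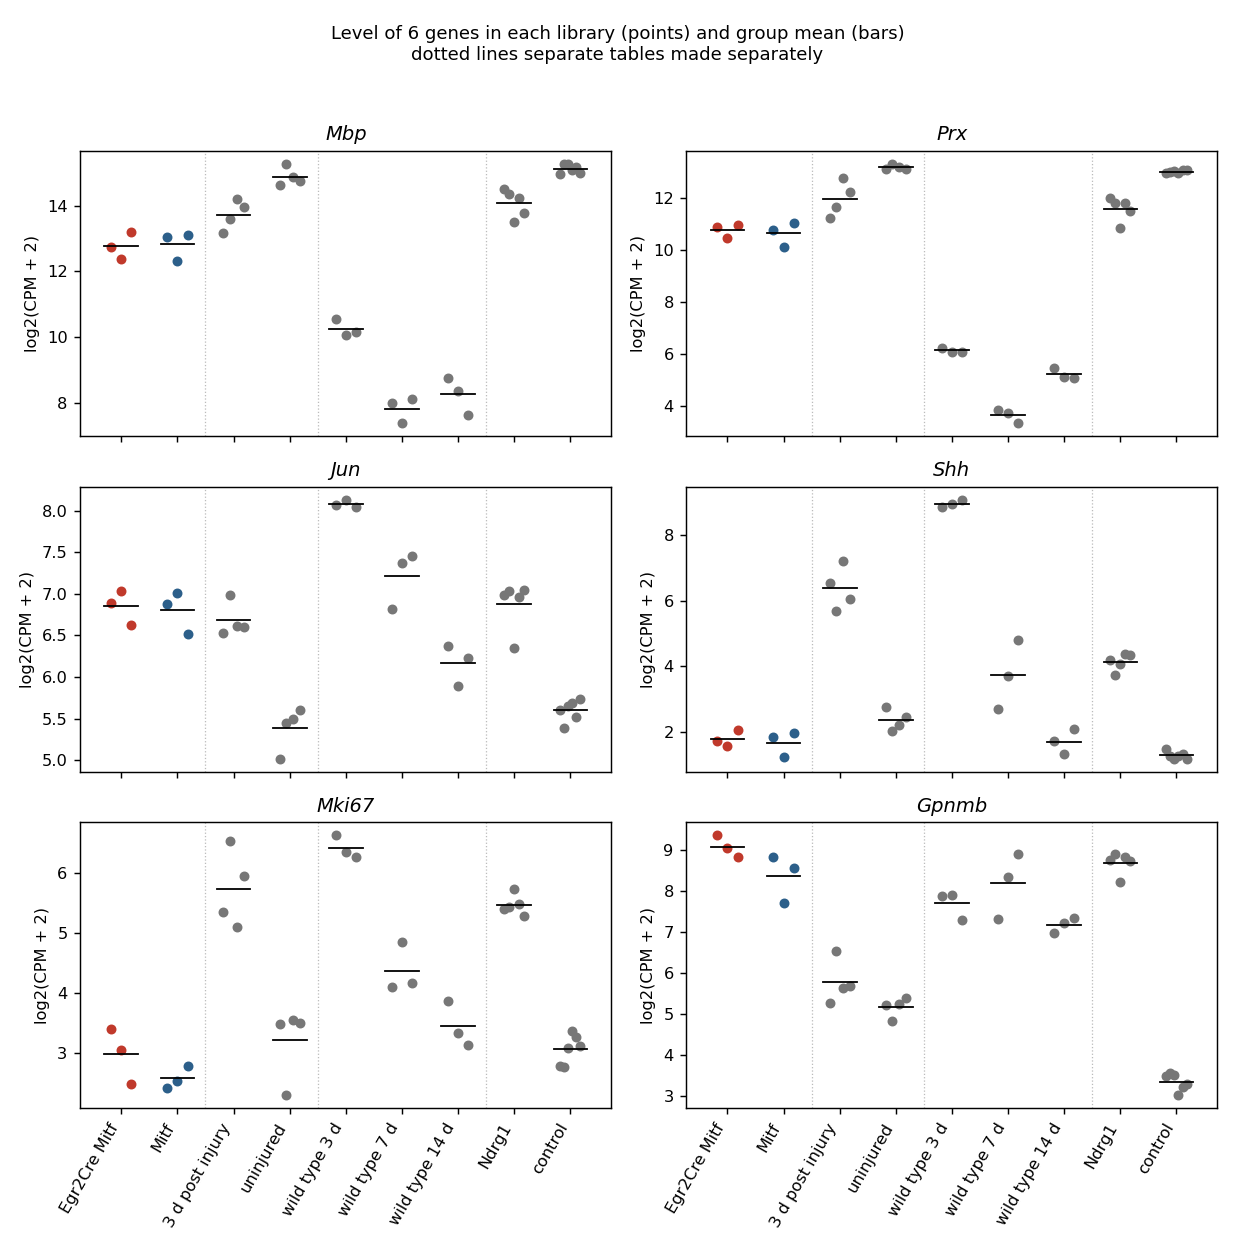
Level of 6 genes, as log2(CPM + 2), in every library of 9 groups (points) with group means (bars), for Egr2Cre Mitf and Mitf libraries (red and blue), the injury table, the wild type time course, and Ndrg1 and control nerves. Jun is as high in the red and blue points as at 3 days post injury in the injury table, and lower than in wild type nerves 3 days post injury. Mki67 is as low as in uninjured nerves, Shh is as low or lower, and Shh is also low in wild type nerves 14 days post injury. Gpnmb averages 543 CPM for Egr2Cre Mitf and 344 CPM for Mitf, above the 34.5 CPM of uninjured nerves.

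Macrophage genes, picked after their values were seen, were placed in different ways. Gpnmb averaged 543 ± 102 CPM for Egr2Cre Mitf and 344 ± 124 CPM for Mitf (SD, n = 3 each), against 56.3 ± 23.9 CPM at 3 days post injury and 34.5 ± 5.61 CPM in uninjured nerves (SD, n = 4 each). Ndrg1 nerves had 415 ± 69.5 CPM (SD, n = 5) and control nerves 8.36 ± 1.44 CPM (SD, n = 6). Atp6v0d2, a proton pump subunit of macrophages and osteoclasts, averaged 41.9 ± 0.349 CPM for Egr2Cre Mitf and 37.7 ± 14.0 CPM for Mitf, against 13.4 ± 3.98 CPM at 3 days post injury and 0.825 ± 0.397 CPM in uninjured nerves, and 27.9 ± 3.02 CPM in Ndrg1 and 0.636 ± 0.317 CPM in control nerves. Trem2 had 54.4 ± 20 CPM at 3 days post injury and 13.9 ± 7.26 CPM in uninjured nerves, beside the values above. Lyz2, lysozyme, averaged 1810 ± 170 CPM for Egr2Cre Mitf and 1400 ± 453 CPM for Mitf, against 953 ± 372 CPM at 3 days post injury and 411 ± 185 CPM in uninjured nerves. Lgals3, galectin-3, averaged 237 ± 6.08 CPM for Egr2Cre Mitf and 185 ± 50.4 CPM for Mitf, below the 817 ± 270 CPM at 3 days post injury and above the 73.9 ± 18.8 CPM of uninjured nerves. Spp1, osteopontin, was lower than in both, at 409 ± 46.6 CPM for Egr2Cre Mitf and 323 ± 90.1 CPM for Mitf, against 1100 ± 488 CPM at 3 days post injury and 956 ± 147 CPM in uninjured nerves. Cd163 was lower as well, with 7.09 ± 1.31 CPM for Egr2Cre Mitf and 9.53 ± 5.45 CPM for Mitf, against 32.4 ± 6.07 CPM at 3 days post injury and 35.5 ± 14.3 CPM in uninjured nerves. Beside wild type nerves 14 days post injury, Spp1 was higher, at 2.34 and 1.85 times their mean in Egr2Cre Mitf and Mitf libraries. Gpnmb stood at 3.8 and 2.41 times that mean, Atp6v0d2 at 1.8 and 1.62, and Lgals3 at 1.5 and 1.17. Lyz2 stood at 1.15 and 0.886 times, Cd163 at 0.914 and 1.23, and Trem2 at 0.721 and 0.537.

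Mean levels of whole lists showed the same mixture. Myelin protein genes averaged 8.13 in Egr2Cre Mitf and 7.95 in Mitf libraries as log2(CPM + 2), against 8.90 at 3 days post injury and 9.53 in uninjured nerves. Cholesterol synthesis genes averaged 5.16 in Egr2Cre Mitf and 5.04 in Mitf libraries, against 6.32 at 3 days post injury and 7.25 in uninjured nerves. Cell cycle genes averaged 2.71 in Egr2Cre Mitf and 2.53 in Mitf libraries, against 4.40 at 3 days post injury and 2.45 in uninjured nerves. Repair genes averaged 3.27 in Egr2Cre Mitf and 3.03 in Mitf libraries, against 4.33 at 3 days post injury and 2.90 in uninjured nerves. As list means, myelin and lipid genes were therefore below both groups of the injury table, while repair and division genes were close to the uninjured one. Single repair genes differed in this. In Egr2Cre Mitf and Mitf libraries, Gap43 stood at 3.01 and 2.39 times the uninjured mean, and Btc at 16.9 and 13.7 times. Fgf5 stood at 21 and 7.27 times that mean, Runx2 at 4.98 and 3.69 times, and Sox2 at 3.03 and 2.12 times. Shh stood at 0.45 and 0.39 times the uninjured mean, Ncam1 at 0.481 and 0.318 times, and Atf3 at 0.982 and 0.958 times. Markers of the perineurial sheath averaged 7.06 in Egr2Cre Mitf and 6.81 in Mitf libraries, while the other groups set beside them ran up to 5.79. Mast cell markers averaged 4.25 in Egr2Cre Mitf and 4.60 in Mitf libraries, and up to 3.61 in the other groups. The part of these other tissues in the low myelin and lipid levels was not tested.

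**Figure D5:**
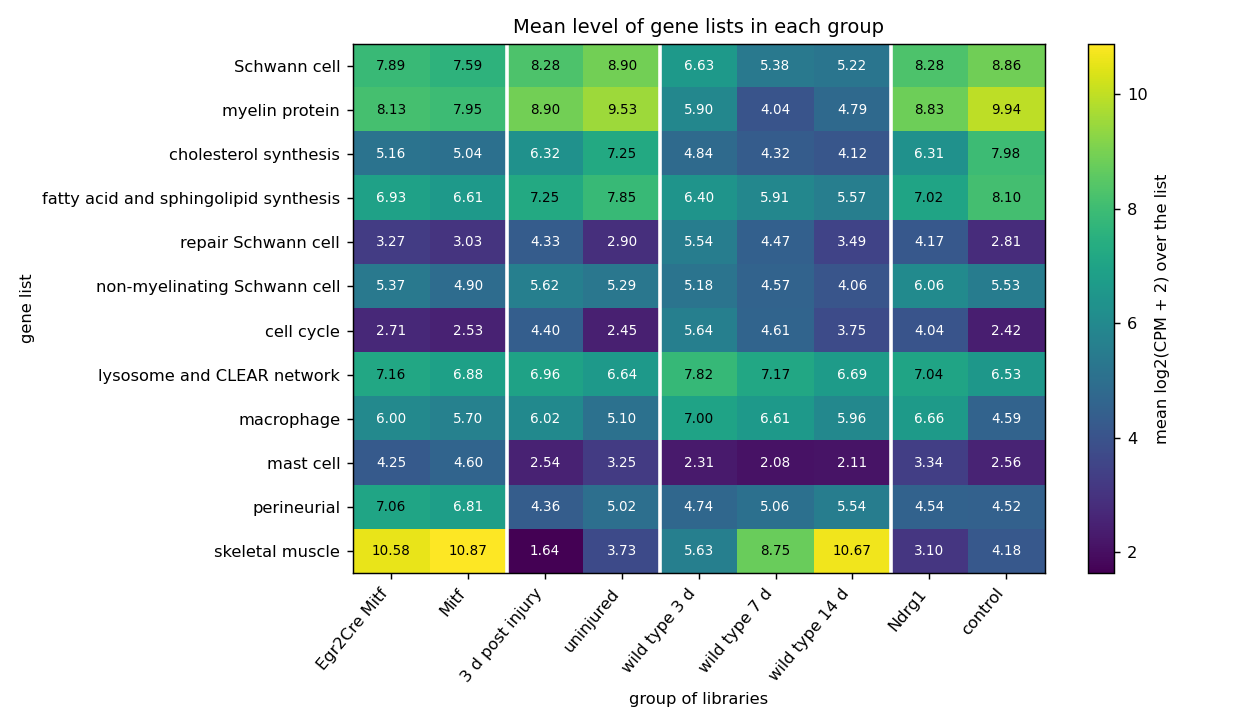
Mean log2(CPM + 2) of 12 gene lists (rows) in 9 groups of libraries (columns), with white lines between tables made separately. The columns for Egr2Cre Mitf and Mitf resemble each other, with 8.13 and 7.95 for myelin protein genes. They are higher than the other columns in mast cell and perineurial genes. Their cholesterol synthesis means, 5.16 and 5.04, lie above the 4.84 of wild type nerves 3 days post injury and below the injury table. High muscle RNA is shared with wild type nerves 7 and 14 days post injury, whose muscle genes summed to up to 36000 and 95200 CPM.

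The most similar labels elsewhere were Egr2Cre and Mitf at P12, 3 libraries each, with no library in common. Of 14415 genes, edgeR called 2 (0.0139%), both higher in Egr2Cre, and both with names of ribosomal or predicted pseudogenes, Rpl15-ps2 and Gm5292, whose reads can be shared with their source genes. In all, 371 genes (2.57%) had an unadjusted p under 0.05, with 1.04% of the genes tested higher. Mitf stood at 8.50 ± 1.67 CPM in Egr2Cre P12 and 13.9 ± 0.286 CPM in Mitf P12 libraries (SD, n = 3 each), a log2 difference of -0.73 (SE 0.151, adjusted p = 1 by edgeR). That is the same direction as the -0.45 without a stated age, and the difference between the differences, 0.27 (SE 0.226), did not pass (adjusted p = 1 by edgeR). Over 14123 genes, edgeR called 0 (0%) for a difference between the tables, and 582 (4.12%) had an unadjusted p under 0.05, 2.1% with a larger and 2.02% with a smaller value than at P12. DESeq2 called 21 there. Manba had the smallest p of that test, with 0.63 in the Egr2Cre Mitf comparison, -0.26 at P12, and a difference of 0.88 (SE 0.167). Il18bp and Tenm4 had log2 differences of -0.15 and 0.06 at P12, and Glb1 and Gpnmb had 0.09 and 0.19. Lysosome genes had a median of 0.01 at P12 and non-myelinating Schwann cell genes 0.04. Replicate 3 of Egr2Cre P12 was rich in muscle RNA: the muscle genes summed to between 14.1 and 12900 CPM in Egr2Cre P12 and between 13.3 and 45.9 CPM in Mitf P12 libraries.

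A further comparison was that of Mutant and wild type nerves 3 days post injury, 3 libraries each. Of 15852 genes, edgeR called 0 (0%), DESeq2 called 0, and 299 (1.89%) had an unadjusted p under 0.05 by edgeR, 0.984% of the genes being higher and 0.902% lower in Mutant. Mitf stood at 6.56 ± 0.919 CPM in Mutant and 8.19 ± 0.776 CPM in wild type nerves (SD, n = 3 each), a log2 difference of -0.36 (SE 0.239, adjusted p = 1 by edgeR). Il18bp differed there by 0.09, Tenm4 by -0.45 and Manba by -0.17 on the log2 scale. Lysosome genes had a median of 0.02 and non-myelinating Schwann cell genes a median of 0.15, of which 9 of 12 were positive. Mitf was thus measured lower under the Cre or Mutant label in all 3 comparisons, passing the adjusted test in none, and neither Il18bp nor Tenm4 had a difference above 0.1 on the log2 scale at P12 or 3 days post injury.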

How the data were processed

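RNA of whole sciatic nerve was sequenced from stranded mRNA libraries, per the labels' protocols. The authors deposited estimated counts for each gene, made with kallisto on mm10, per the submitters' processing notes. Its version and the annotation were not given in the sources used here. Kallisto divides reads among near-identical genes by a model, so levels of such copies are uncertain. Before testing, the estimated counts were rounded to whole numbers. The table of the 6 libraries lists 31232 gene symbols, of which 5249 had a count of 0 throughout, and columns not used numbered 0.

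Groups were taken from the labels. With edgeR 4.0.16 in R 4.3.3, genes with low counts were removed by filterByExpr at a minimum of 10, TMM factors were computed, and the robust quasi-likelihood test was applied. Tests were two-sided, p-values were adjusted by the Benjamini-Hochberg method over all genes of a comparison, and the threshold was 0.05. The SE was taken as the absolute log2 difference over the square root of F, and intervals are at 95%. DESeq2 1.42.0 was an alternative. CPM values come from the deposited estimated counts, with a pseudocount of 2 on the log2 scale. The fit was tested on simulated data. The Mutant comparison shared the spread of its whole table, and the comparison between tables was an interaction over shared symbols.

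The members and lists were chosen with earlier results of these data known. Named genes were Mitf and Egr2, the 12 per direction with the smallest p, the list members with the smallest p and those needed to describe a list, and genes that place nerves after injury. The rule asked for genes past the test, and since none passed, those with the smallest p were given. Libraries with the same replicate number deviated together in the Egr2Cre Mitf table (correlations 0.123, 0.34 and 0.256 across genes), each best with its own number. The numbers may therefore pair these libraries, but this check cannot settle it. Replicates 2 of both groups had Ddx3y and less than 1 CPM of Xist, and replicates 3 of both had the reverse. The part of sex in these correlations was not tested. Values given are from the fit without the block, and in that comparison the block changed no call. Alternatives were other scaling, filters and tools, a replicate block, covariates for sex (log2 CPM of Ddx3y) and for muscle, a fold minimum, and leaving out libraries. Positions of genes were looked up by symbol in GENCODE vM21 (mm10), and promoters are from RefSeq (GRCm38.p6).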

Additional observations from a re-analysis of the deposited data

Results flagged for a closer look

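Single libraries stood apart from the others of their group in the injury table, which was used only to place the nerves. Jun at 125 CPM, Olig1 at 65.5 CPM and Sox2 at 57.2 CPM were each far from the other libraries 3 days post injury, and Olig1 at 0.158 CPM, Gap43 at 11.1 CPM and Mki67 at 2.94 CPM were each far from the other uninjured libraries. Of 38 groups of values examined in this way, chance marks about 1 in 20.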

How the results depend on the processing

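The count of genes called for Egr2Cre Mitf against Mitf was 0 with the replicate block, RLE scaling, no low-count filter, a minimum count of 50, a sex or muscle covariate, a fold minimum, and any single library left out (0 to 0). It was 7 with DESeq2, and 1 without the muscle-rich library and its number mate, a setting chosen after seeing the data. Genes at an unadjusted p under 0.05 numbered 1178 with the replicate block, 1079 with no low-count filter, 98 with the fold minimum and 323 without the muscle-rich pair, against 671. At P12, the 2 calls became 12 with DESeq2, 4 with no low-count filter and 0 with the replicate block, where same-numbered libraries did not deviate together, and ran from 0 to 2 as libraries were left out, with 0 without replicate 1 or 3 of Mitf or replicate 3 of Egr2Cre. For the difference between the tables, DESeq2 called 21 genes and the replicate block 1, and leaving out libraries gave 0 to 3, the highest without replicate 1 of Egr2Cre P12. The 3365 genes called after injury ranged from 1816 to 4058, the lowest without replicate 2 of the uninjured nerves, and were 2080 without replicate 1 or 3 of them. With genes past a log2 change of 2, the injury score was 0.23 for Egr2Cre Mitf and -0.2 for Mitf. There it was 2.61 at 3 days post injury, -0.24 in uninjured, 0.32 in control and 0.45 in wild type nerves 14 days post injury. Where the score placed the nerves depended on that limit. It was -0.99 for Egr2Cre Mitf and -1.03 for Mitf with a pseudocount of 0.5, against -0.24 at 3 days post injury, -3.18 in uninjured and -3.15 in control nerves. Of 86 genes followed, 84 kept one sign in every setting. Jun turned to 0.1 with the sex covariate, 0.01 with the muscle covariate and 0.04 without the muscle-rich pair, and ran from -0.22 to 0.14 with libraries left out. Shh turned to -0.1 with the sex covariate and -0.03 without the muscle-rich pair, and ran from -0.27 to 0.54. The causes were not tested. Of the list medians under the alternatives, 30 moved by more than the spread between libraries and 479 did not.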
